A study of Mus musculus with 8 samples.

Results

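The 10 genes described here encode trefoil peptides, mucins and other proteins made by mucus-secreting cells, mainly those of the stomach, and their transcripts were measured in mouse pancreatic cancer cells. They are the trefoil genes Tff1, Tff2 and Tff3, the secreted mucins Muc5ac and Muc6, the membrane mucins Muc1 and Muc4, and the mucous-cell genes Ctse, Agr2 and Gkn1. They were taken by their symbols from a table of 24421 rows of read counts, and all 10 had a row. RNA sequencing compared 4 libraries of KPCY cells carrying a lentiviral inhibitor of miR-27a-3p (miR-27a KD) with 4 libraries of KPCY cells carrying a scrambled sequence (Scrambled). KPCY cells are a male mouse pancreatic cancer line from a family of genetically engineered models, with a yellow fluorescent label. The labels name no alleles, so the genotype of the cells is not given further here. Cells of both groups were transduced, selected in 2 µg/mL puromycin for 7 days and grown in medium with 4.5 g/L glucose and 10% serum, and their RNA was taken 24 hours after seeding. Each group is 1 stable line, and p-values reflect how far libraries of these lines differ, not differences between separate transductions.

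Stomach mucus is a layered gel. Surface (pit) cells secrete the gel-forming mucin Muc5ac together with the trefoil peptide Tff1, and deeper neck and gland cells secrete Muc6 together with Tff2, while Tff3 belongs mainly to the goblet cells of the intestine. Trefoil peptides are small, cysteine-rich and protease-resistant, and they take part in mucosal repair. In the human disease, precursor lesions and the classical subtype of pancreatic cancer switch on genes of this gastric set.

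The targeted microRNA has the following mature sequence in RefSeq (GRCm38.p6), shown with its close relative from another locus because a block of miR-27a may also touch transcripts read by the same seed. Capitals mark the seed, bases 2 to 8.
mmu-miR-27a-3p (chr8:84208727-84208747, + strand): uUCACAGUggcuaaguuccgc
mmu-miR-27b-3p (chr13:63300760-63300780, + strand): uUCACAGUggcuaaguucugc
The libraries were made from poly(A) RNA and do not capture mature microRNAs. Of the 8 libraries, knockdown replicate 2 alone had a count for Mir27a (1 count), and Mir27b had 0 everywhere, so the extent of the knockdown was not measurable here.

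None of the 10 genes carried a seed match in its 3′ UTR. The longest GENCODE 3′ UTR of each, 160 bases (Tff2) to 762 bases (Muc6), was searched on the sense strand for the 6-base core CTGTGA, which lies inside the longer 8-base site ACTGTGAA. Of 21025 protein-coding genes searched in the same way, 43.5% held the core. These 3′ UTRs are short, and among the 6830 genes with 3′ UTRs of 160 to 762 bases 21.2% held it. In the transcripts with these 3′ UTRs, the core did occur in the coding sequence of Ctse, Muc6, Muc4 and Muc5ac. Muc5ac, with 10752 bases, held 18 matches, and no share over all genes was computed for coding sequence. Tff1 and Gkn1 each held 1 match upstream of the 3′ UTR, in a window that reaches outside the coding sequence. The transcripts searched for Muc4 (4575 bases) and Muc6 (5087 bases) were not their longest. The following examples (GENCODE M21, GRCm38), with the match in capitals, are the closest matches in Ctse and Muc6, the first of the 7-base matches in Muc4 and a copy of a 6-base match that Muc5ac holds at 2 places.
Ctse (chr1:131672209-131672238, + strand): aggtgggagacACTGTGAtgttctgctccg
Muc6 (chr7:141651874-141651903, - strand): cttctgtggttACTGTGAAcaaggaaacca
Muc4 (chr16:32757074-32757103, + strand): cacctggacccACTGTGAcagagtcctttt
Muc5ac (chr7:141807852-141807881, + strand): aggatacaagttCTGTGAgaagccacgaaa
The Muc5ac window recurs letter for letter at chr7:141809961-141809990 (+ strand). A match is a description of letters and not of binding.

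In the knockdown line 5 of the 10 genes rose. They were Tff1, Tff3, Muc5ac, Muc1 and Ctse, by 1.33-fold to 11.2-fold. Tff2 was tested without a call, and Muc4, Muc6, Agr2 and Gkn1 were too low to be tested. Of the 6 genes tested 0 were called lower by edgeR, and 0 were lower at an unadjusted edgeR p under 0.05. DESeq2 and limma-voom likewise called 5 higher and 0 lower. Across all 11797 genes tested, 47.9% were called at an adjusted p under 0.05, 23.8% higher and 24.1% lower, so a called gene is common in this comparison. The libraries of the 2 groups did not overlap for 5 of the 10 genes in the higher direction and for 1, Muc4, in the lower, where all tested genes gave 42.2% in either direction, 21.0% higher and 21.1% lower. In bulk RNA, more cells with a transcript and more transcript in each cell cannot be told apart. Tff3 and Muc5ac entered the test through the knockdown libraries alone, since every Scrambled library lay under the filter of 0.490 CPM (counts scaled to library size), and genes that enter in this way had to differ. For that reason the 5 calls are not read as a share of the 6 genes tested. Nor are the 5 genes without overlap read as a share of the 10, since for Tff3 and Muc5ac this followed from the filter. Muc4 was not tested, so the shares over all tested genes do not apply to it.

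**Figure D1:**
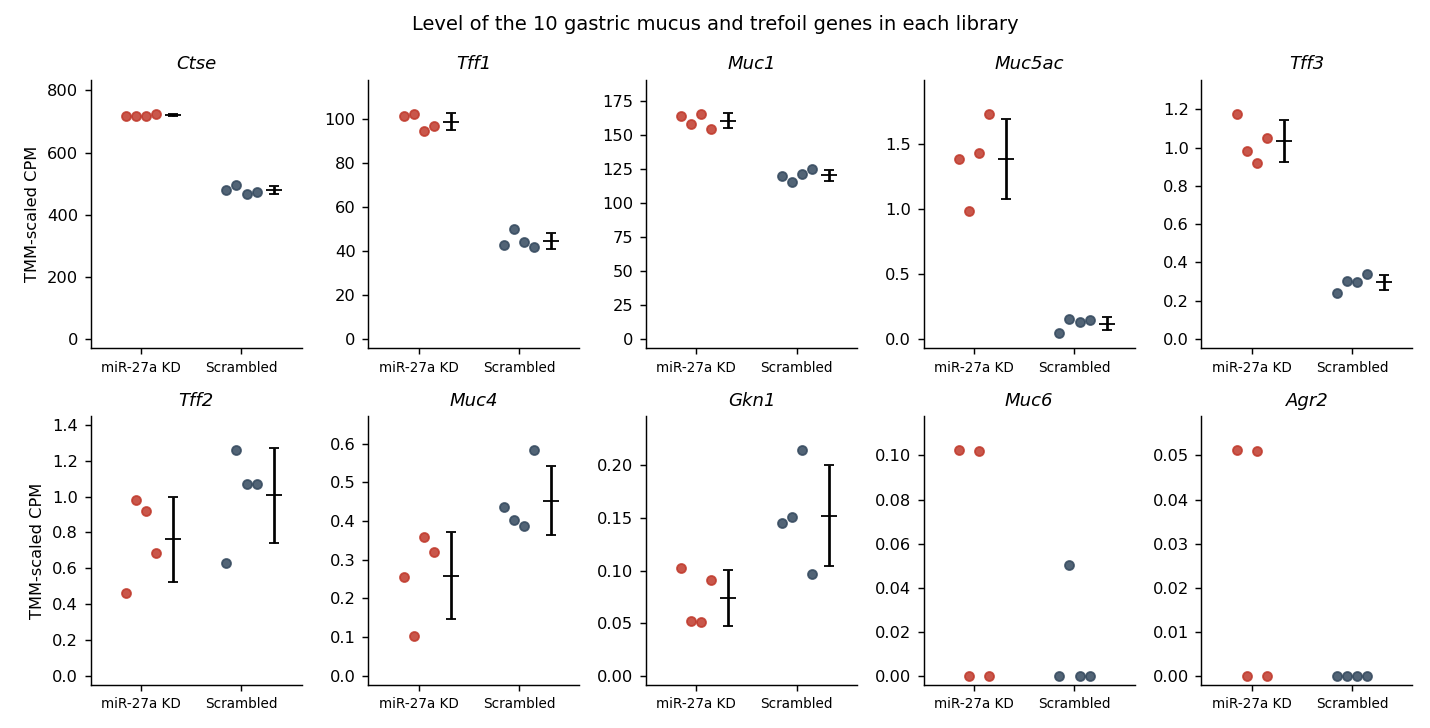
TMM-scaled CPM of each gene (y axis, linear, a separate scale for each panel) in the 4 miR-27a KD and the 4 Scrambled libraries, with bars for the mean ± SD, left out for Muc6 and Agr2, which had 0 to 2 counts per library. All knockdown points lie above all Scrambled points for Ctse, Tff1, Muc1, Muc5ac and Tff3, and below them for Muc4.

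Tff1, the trefoil peptide of gastric pit cells, was the main trefoil transcript. Its levels were 102, 103, 94.7 and 96.8 CPM in knockdown replicates 1 to 4, against 42.9, 50.1, 44.4 and 41.8 CPM in Scrambled replicates 1 to 4. The lowest knockdown library stood well above the highest Scrambled library, replicate 2. Tff1 (GRCm38 chromosome 17, 31161395 to 31165277, minus strand) rose 2.21-fold (98.9 ± 3.77 against 44.8 ± 3.69 CPM, SD, n = 4; log2 fold change 1.14, SE 0.0463, adjusted p = 3.36e-15). It shares 221 exon bases with Gm15318, an antisense gene that has no row in the table, and without the strand setting of the counting its reads could include that gene's.

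Tff3, the trefoil peptide of intestinal goblet cells, was scarce and rose. It had 23, 19, 18 and 23 counts in the knockdown libraries, against 5, 6, 7 and 7 counts in the Scrambled libraries. The groups did not overlap, and the increase was 3.44-fold (1.03 ± 0.110 against 0.296 ± 0.0401 CPM, SD, n = 4; log2 fold change 1.78, SE 0.309, adjusted p = 5.34e-05). From the summed counts alone, 83 against 25, the ratio was 3.55 with an exact 95% interval of 2.25 to 5.79, which covers counting error only.

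Tff2, the trefoil peptide of neck and gland cells, went the other way in its mean without a call. It had 9, 19, 18 and 15 counts in the knockdown libraries, against 13, 25, 25 and 22 in the Scrambled libraries. The groups overlapped, and the log2 fold change was −0.40 with a 95% interval of −1.01 to 0.20 (adjusted p = 0.263). That interval reaches from a level 0.498 times that of the Scrambled cells to one 1.145 times as high, so a moderate fall and no change are both within it. It does not overlap the interval of Tff1 (1.05 to 1.24) or of Tff3 (1.14 to 2.42), though the difference between the genes was not itself tested.

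The make-up of the trefoil set therefore differed a little between the lines. Tff1 supplied 98.1% to 98.4% of trefoil counts in knockdown libraries and 96.7% to 98.0% in Scrambled libraries. Per kilobase of transcript, Tff3 made up 1.45% ± 0.136 of the 3 genes in the knockdown and 0.913% ± 0.145 in the Scrambled line. Tff2 made up 0.907% ± 0.286 in the knockdown and 2.60% ± 0.584 in the Scrambled line (SD, n = 4). Because Tff1 made up most of the total, its rise by itself lowers the Tff2 share, and Tff2 itself was not called. Tff3 stood above Tff2 per kilobase in the knockdown (2.09 ± 0.223 against 1.30 ± 0.409 CPM per kilobase) and below it in the Scrambled line (0.601 ± 0.0813 against 1.73 ± 0.456). Per kilobase the libraries of the pair did not overlap in either line. In counts the pair tied in knockdown replicates 2 (19 each) and 3 (18 each). The separation in the knockdown thus rests on low counts and on the lengths used, 0.493 kb for Tff3 and 0.584 kb for Tff2.

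Muc5ac, the gel-forming mucin of gastric surface cells, had the largest fitted fold change of the 6 genes tested. It had 27, 19, 28 and 38 counts in the knockdown libraries, against 1, 3, 3 and 3 in the Scrambled libraries, where the values were no higher than the 3 counts that a count of 0 allows. The fitted increase was 11.2-fold (1.38 ± 0.307 against 0.118 ± 0.0476 CPM, SD, n = 4; log2 fold change 3.49, SE 0.382, adjusted p = 1.07e-07). Because the Scrambled level rests on 10 counts in all, the size is uncertain. The ratio of summed counts, 112 against 10, was 11.97 with an exact 95% interval of 6.27 to 25.6. Even in the knockdown the transcript was scarce, at 0.129 CPM per kilobase, against 2.09 for Tff3 in the same libraries.

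Muc6, the gel-forming mucin of neck and gland cells, was barely detected. It had 2, 0, 2 and 0 counts in the knockdown libraries, against 0, 1, 0 and 0 in the Scrambled libraries. No difference was detectable at this depth (ratio of summed counts 4.28, exact 95% interval 0.423 to 211).

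Muc1, a membrane mucin that lines the apical surface of ductal cells, made up nearly all of the mucin counts among the 4 mucin genes. It stood at 164, 158, 166 and 154 CPM in knockdown replicates 1 to 4, against 120, 115, 121 and 125 CPM in Scrambled replicates 1 to 4. The groups were separate, and Muc1 rose 1.33-fold (160 ± 5.42 against 120.2 ± 3.96 CPM, SD, n = 4; log2 fold change 0.42, SE 0.0315, adjusted p = 3.06e-10). Muc1 gave 98.7% to 99.3% of mucin counts in knockdown libraries and 99.4% to 99.6% in Scrambled libraries.

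Muc4, a membrane mucin that binds the receptor ErbB2, was the gene whose knockdown libraries all lay below the Scrambled ones. It had 5, 2, 7 and 7 counts in the knockdown libraries, against 9, 8, 9 and 12 in the Scrambled libraries, or 0.259 ± 0.112 against 0.452 ± 0.0896 CPM (SD, n = 4). An exact two-sided permutation test gave p = 0.0286, the smallest that 4 against 4 libraries allow, but counting error alone is large here, with a ratio of summed counts of 0.591 and an exact 95% interval of 0.329 to 1.03. With no filter on low counts edgeR gave adjusted p = 0.225, so Muc4 is not reported as a fall. It shares 627 exon bases with Muc20 on the opposite strand, and Muc20 had 0 counts in the knockdown libraries against 5 in the Scrambled libraries.

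Ctse, cathepsin E, an aspartic protease of the endosomes of gastric surface cells, was the most abundant of the 10 genes and the most even between replicates. Its levels were 719, 717, 718 and 726 CPM in knockdown replicates 1 to 4, against 480, 496, 467 and 472 CPM in Scrambled replicates 1 to 4. Its coefficient of variation was 0.526% over knockdown libraries and 2.62% over Scrambled libraries. Ctse (chromosome 1, 131638306 to 131675505, plus strand) rose 1.51-fold (720.1 ± 3.79 against 478.5 ± 12.5 CPM, SD, n = 4; log2 fold change 0.59, SE 0.0223, adjusted p = 8.44e-16). It supplied 72.8% to 74.7% of the summed CPM of the 10 genes, which ran from 980.5 to 988 in knockdown libraries and from 634 to 663 in Scrambled libraries.

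Agr2 and Gkn1 were close to absent. Agr2, a disulfide isomerase of the endoplasmic reticulum that mucin-secreting cells need, had 1, 0, 1 and 0 counts in the knockdown libraries against 0 in all 4 Scrambled libraries. In a single library a count of 0 leaves room for 3 counts, or 0.127 to 0.150 CPM in the Scrambled libraries, so no fold is given. Gkn1, gastrokine 1, a secreted protein of gastric pit cells, had 2, 1, 1 and 2 counts in the knockdown libraries, against 3, 3, 5 and 2 in the Scrambled libraries (ratio of summed counts 0.493, exact 95% interval 0.154 to 1.39). An exact two-sided permutation test of Gkn1 gave p = 0.0571.

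**Figure D2:**
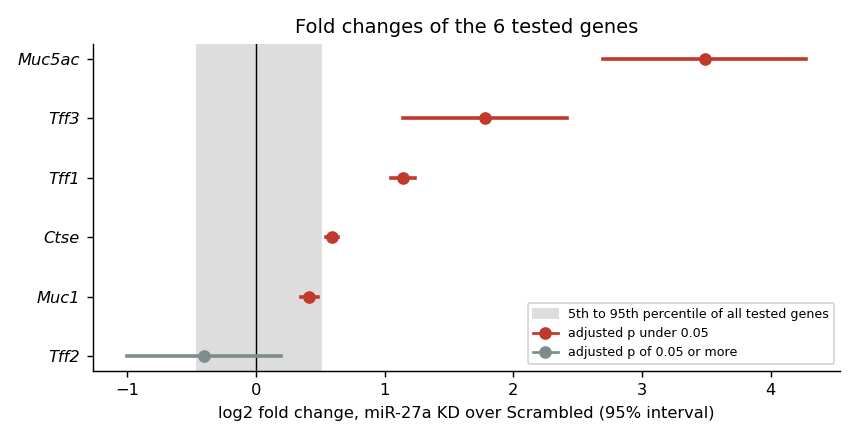
Log2 fold change of miR-27a KD over Scrambled (x axis) with its 95% interval for the 6 genes tested, and in grey the range from the 5th to the 95th percentile of all tested genes. The intervals of Muc5ac, Tff3, Tff1 and Ctse lie above the grey band (which ends at 0.51), Muc1 at 0.42 lies within it, and the interval of Tff2 includes 0.

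Set against the spread of all genes, the changes were of very different sizes. The 5th to 95th percentiles of log2 fold change over all tested genes were −0.46 to 0.51, with a median of 0.0017. The intervals of Ctse (0.54 to 0.64) and Muc1 (0.35 to 0.48) did not overlap each other or that of Tff1. Of the genes called higher, 154 had a larger fold change than Tff1, 431 than Ctse and 700 than Muc1. Small changes in abundant transcripts were thus called beside large changes in scarce ones.

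The order of abundance was nearly the same in both lines for the genes that were well measured. In CPM per kilobase of the longest coding transcript, Ctse stood at 339 ± 1.78, Tff1 at 141 ± 5.36 and Muc1 at 71.5 ± 2.42 in the knockdown, against 225 ± 5.90, 63.7 ± 5.25 and 53.6 ± 1.77 in the Scrambled line (SD, n = 4). Neighbours in this order did not overlap between libraries in either line. By mean level per kilobase Ctse ranked 130 and Tff1 396 among the 14637 matched rows with a count in the knockdown, against 231 and 1145 of 14666 in the Scrambled line. All other genes of the set lay at 2.09 or below. Muc5ac was sixth in the knockdown and eighth in the Scrambled line, and below it Gkn1, Agr2, Muc4 and Muc6 overlapped with their neighbours in the knockdown.

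Most markers of duct epithelium were abundant, and those of other pancreatic cells were at or near 0 for most genes. All 8 duct genes passed the filter, with a summed level of 11380 to 11700 CPM in knockdown and 10710 to 11680 CPM in Scrambled libraries. Epcam was low, at 5.62 ± 1.16 against 7.15 ± 1.80 CPM (SD, n = 4). Cldn4, a tight junction gene, stood at 4.51 ± 0.246 against 0.231 ± 0.132 CPM. Its Scrambled mean lay under the filter of 0.490 CPM, and it was called higher. Cdh1, Krt7 and Krt18 were also called higher, Krt19 and Sox9 were called lower, and Epcam and Krt8 were not called. The summed level therefore hides calls in both directions. Fibroblast markers summed to 0.777 to 1.43 against 0.943 to 1.41 CPM (4 of 8 at 0, Dcn and Lum among them), leukocyte markers to 2.71 to 4.40 against 3.69 to 4.08 (3 of 7 at 0), endothelial markers to 0.182 to 0.717 against 0.534 to 1.16 (0 of 5 at 0) and acinar markers to 2.12 to 3.22 against 2.48 to 4.18 CPM (3 of 7 at 0). Most of the acinar sum was the elastase gene Cela1, which was called lower (2.36 ± 0.441 against 3.29 ± 0.675 CPM). Endocrine markers were at 0.0512 CPM or less, with 3 of 5 at 0. Markers of intestinal goblet cells, which also make Tff3, summed to 4.82 to 6.06 CPM in the knockdown against 1.94 to 3.12 CPM in the Scrambled line, and nearly all of this was Clca1, a secreted goblet-cell protein, which rose 2.13-fold (433 against 213 counts, adjusted p = 3.41e-06). The other 6 goblet markers were at or near 0, with Zg16, Retnlb and Atoh1 at 0 in all libraries and Muc2 at 1 against 4 counts. The part of a change in cell makeup in the results was not tested.

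Depth was similar across libraries, at 19165513 to 21735023 counts in the knockdown and 20021056 to 23542275 in the Scrambled line. Scrambled replicate 2 differed most from its group, giving 5.03 to 5.20 chi-square units per gene when set beside the other 3, whose own pairs gave 1.79 to 2.31. Without it Tff1, Tff3, Muc5ac, Muc1 and Ctse were again called, and the log2 fold change of Tff1 was 1.199. For Tff3 and Muc5ac, which entered the main fit through the knockdown libraries alone, the repeated call is not read as support.

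Of 20 further pit, neck and gland genes of the stomach, 10 were tested, 3 rose (30%, near the 23.8% of all genes), 3 fell (30%, near 24.1%) and 4 were not called, with a median log2 fold change of 0.11 against 0.0017 for all genes. Cldn18, the claudin of gastric tight junctions, rose 4.71-fold (13.1 ± 1.49 against 2.76 ± 0.369 CPM, adjusted p = 4.99e-13) and Tspan8, a membrane tetraspanin, 1.14-fold (758 ± 10.5 against 663 ± 5.11 CPM, adjusted p = 6.94e-08). Slc26a9, an anion transporter of gastric epithelium, fell 1.93-fold (14.6 ± 1.31 against 28.1 ± 2.01 CPM, adjusted p = 1.93e-10). Gkn2, which in humans pairs with TFF1, was chosen after its values were seen and was too low to be tested. It had 1, 2, 4 and 7 counts in the knockdown libraries against 0 in all 4 Scrambled libraries. The genes of acid-secreting and enzyme-secreting cells were mostly silent, with Atp4b, Pga5 and the intrinsic factor gene at 0 throughout. Atp4a was low but passed the filter, and it was not called (1.30 ± 0.375 against 0.966 ± 0.203 CPM, adjusted p = 0.182).

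Most other mucins with a row were nearly absent. Of 13 further mucin genes, 8 had a row and only Cd164, the sialomucin endolyn, was tested, at 264 against 265 CPM (log2 fold change −0.01, adjusted p = 0.811). Muc5b, the airway gel-forming mucin that neighbours Muc5ac, had 7 counts in the knockdown libraries and 2 in the Scrambled libraries.

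Of 18 tested enzymes that build mucin-type sugar chains, 9 rose (50.0%, beside 23.8% of all genes), 5 fell (27.8%, beside 24.1%) and 4 were not called. The difference from all genes was not tested. Gcnt3, which adds the branching sugar of mucin core chains, rose 2.00-fold (268 ± 4.99 against 134 ± 5.34 CPM, adjusted p = 4.11e-18). B3gnt3, which extends core chains, rose 1.33-fold (166 ± 3.84 against 125 ± 3.52 CPM, adjusted p = 8.54e-11) and Galnt1, which attaches the first sugar, 1.21-fold (253 ± 3.77 against 209 ± 3.63 CPM, adjusted p = 6.36e-09). The median log2 fold change of the list was 0.11. A4gnt, which makes the sugar cap typical of Muc6, was at 0 in all libraries.

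Among relatives of Agr2 in the endoplasmic reticulum, 14 disulfide isomerases and oxidases were tested, 2 rose (14.3%, beside 23.8% of all genes), 3 fell (21.4%, beside 24.1%) and 9 were not called, with a median log2 fold change of −0.04. Erp29, a chaperone of secreted proteins, rose 1.21-fold (71.8 ± 2.27 against 59.3 ± 1.62 CPM, adjusted p = 2.24e-06). Tmx3, a membrane isomerase, fell 1.195-fold (95.1 ± 3.60 against 114 ± 3.85 CPM, adjusted p = 1.80e-06) and Ero1a, listed as Ero1l, the oxidase that recharges isomerases, fell 1.23-fold (59.9 ± 1.04 against 73.8 ± 6.90 CPM, adjusted p = 3.11e-05).

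Of 11 other tested aspartic proteases and cathepsins, 3 rose (27.3%, beside 23.8% of all genes), 5 fell (45.5%, beside 24.1%) and 3 were not called, with a median log2 fold change of −0.03. Ctsf, among the 3 that rose, entered the test through the knockdown libraries alone (0.708 ± 0.132 against 0.187 ± 0.0665 CPM). The share that rose is therefore not read as a result about the list. Ctsc fell 1.62-fold (165 ± 1.45 against 267 ± 12.7 CPM, adjusted p = 1.11e-14), Ctsz 1.22-fold (118 ± 2.09 against 144 ± 5.36 CPM, adjusted p = 1.04e-07) and Ctsb 1.14-fold (383 ± 9.02 against 435 ± 22.2 CPM, adjusted p = 2.46e-05). These are cysteine proteases of the lysosome.

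Of 22 tested transcription factors of mucous and foregut cells, 9 rose (40.9%, beside 23.8% of all genes), 4 fell (18.2%, beside 24.1%) and 9 were not called, with a median log2 fold change of 0.05. Klf4, a factor of differentiated epithelium, rose 1.74-fold (72.9 ± 0.864 against 41.9 ± 7.01 CPM, adjusted p = 2.03e-09) and Gata5, an endodermal GATA factor, 1.24-fold (145 ± 3.61 against 117 ± 4.32 CPM, adjusted p = 3.04e-08). Ehf, an epithelial ETS factor, fell 2.54-fold (18.5 ± 0.741 against 46.8 ± 3.48 CPM, adjusted p = 1.11e-14). Spdef, the goblet-cell factor, had 1 count in the knockdown libraries and 2 in the Scrambled libraries.

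Of the receptors and partners of these proteins, 8 were tested, 3 rose (37.5%, beside 23.8% of all genes), 2 fell (25.0%, beside 24.1%) and 3 were not called. Lgals3, the galectin that binds mucin sugars, fell 1.68-fold (411 ± 8.58 against 692 ± 60.7 CPM, adjusted p = 4.73e-13). Ackr3, an atypical chemokine receptor, rose 1.44-fold (22.4 ± 0.269 against 15.6 ± 0.958 CPM, adjusted p = 3.36e-07), and Dag1, dystroglycan, fell 1.07-fold (403 ± 3.53 against 430 ± 7.01 CPM, adjusted p = 0.00136). Cxcr4, the chemokine receptor linked to TFF2, was at 0 in all libraries.

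**Figure D3:**
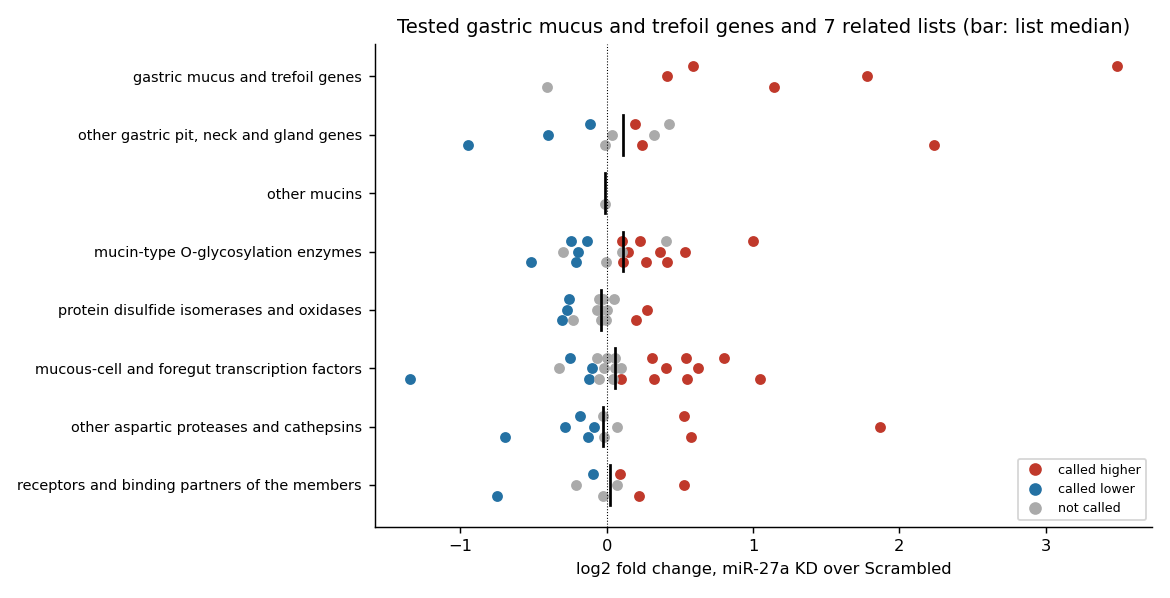
Log2 fold change of miR-27a KD over Scrambled (x axis) for each tested gene of the gastric mucus and trefoil set and of 7 related lists (rows), with a bar at each list's median. Called genes lie on both sides of 0 in 6 of the 7 lists, and the list of other mucins has 1 tested gene, near 0.

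The genes lie on 7 chromosomes. Counts of called neighbours are to be read beside the 23.8% of all genes called higher and the 24.1% called lower, and no difference from these shares was tested. The trefoil genes form a cluster on chromosome 17 in the order Tff3, Tff2, Tff1, with gaps of 11.4 and 17.1 kb. Tff3 spans 31125306 to 31129646 and Tff2 31141049 to 31144282, both on the minus strand like Tff1. Tff2, in the middle, was not called while both its neighbours rose. The next tested gene beyond Tff1, Slc37a1 at 122 kb, had a log2 fold change of 0.02 (adjusted p = 0.869). Farther out, Pde9a at 221 kb from Tff1 was called higher (log2 fold change 0.26, adjusted p = 0.0291). Within 250 kb of Tff1, 2 of 4 tested genes rose, Tff3 and Pde9a, and 0 fell. Tff3 entered the test through the knockdown libraries alone, so this count is not read as a share. Around Muc5ac on chromosome 7 (141788972 to 141819231, plus strand), the 4 tested genes within 250 kb had log2 fold changes with a median of −0.05, 0 of them higher and 1 lower. Around Ctse on chromosome 1, 0 of 7 tested genes rose and 3 fell, among them the adjacent Rab7b, a small GTPase of late endosomes (log2 fold change −1.46, adjusted p = 2.21e-05), and Slc26a9, 68.5 kb away. Around Muc1, in a gene-dense part of chromosome 3 (89229057 to 89233381, plus strand), 8 of 27 rose and 4 fell, with a median of 0.04.

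**Figure D4:**
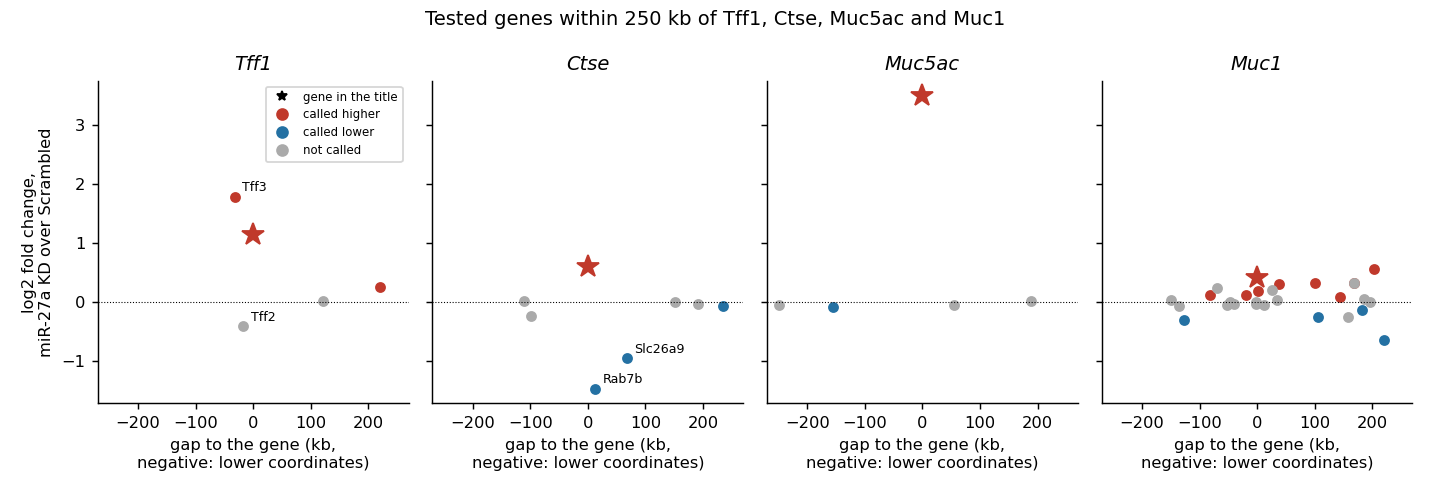
Log2 fold change of miR-27a KD over Scrambled (y axis) for tested genes within 250 kb of Tff1, Ctse, Muc5ac and Muc1, by their gap to that gene in kb (x axis), with a star for the gene itself. Muc5ac stands at 3.49 among neighbours near 0, and 3 of the 7 neighbours of Ctse fell while Ctse rose.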

How the data were processed

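The authors deposited raw read counts per gene symbol for 8 libraries. RNA with an integrity number of at least 7 was made into stranded poly(A) libraries and read as paired ends of 59 bases, per the labels' protocols. The submitters' processing notes name bcl2fastq 2.20, Bowtie, STAR, DESeq2 1.36.0, R 4.2.1 and mm10, with no roles. Neither the counting tool nor its strand setting is given in the sources used here. Counts were tested in R 4.3.3 with edgeR 4.0.16 (filterByExpr with minimum count 10 and total 15, TMM factors, glmQLFit and glmQLFTest on group, Benjamini-Hochberg over 11797 genes, adjusted p under 0.05). Levels are TMM-scaled CPM. SE is the log2 fold change over the square root of F. Low genes were described by counts, exact binomial (Clopper-Pearson) intervals and exact permutation tests over 70 arrangements in scipy 1.17.1. Lengths, coordinates and 3′ UTRs came from GENCODE M21 (GRCm38), which is the build of the files, and 23309 rows matched by symbol. Older symbols in the lists were matched through RefSeq synonyms.

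The 10 genes and the lists were chosen with earlier results of these data known. The named genes are the 10 and, from each list, up to 3 called genes with the smallest adjusted p and a mean of at least 1 CPM. Other genes named (Gkn2, Clca1, Cela1, Ctsf, Atp4a, Cldn4, Epcam and the other duct markers, genes at or near 0, and chromosomal neighbours) were chosen for naming after their values were seen. Alternatives were DESeq2 1.42.0, limma-voom (limma 3.58.1), other scaling and filters, a replicate block, stricter thresholds, and fits that each omit 1 library.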

Additional observations from a re-analysis of the deposited data

Results flagged for a closer look

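In 8 of the 56 groups of 4 libraries examined, 1 library stood apart from the other 3 by more than Dixon's 95% critical value for the gap over the group's range, which chance gives in about 1 of 20 groups. Among the gastric mucus and trefoil genes this was Muc6, at 0.0504 CPM in Scrambled replicate 2 and 0 in the other 3, which is a single count. Scrambled replicate 2 was also low for Slc26a9 (25.1 CPM, the others 28.9 to 29.3) and Gcnt3 (126 CPM, the others 135 to 137). Scrambled replicate 4 was low for Gata5 (111 CPM). Knockdown replicate 4 was low for Ctsz (115 CPM) and Ctsb (370 CPM, the others 386 to 388.5). Knockdown replicate 1 was low for Lgals3 (398 CPM) and high for Ackr3 (22.8 CPM). In the calls on these list genes the groups did not overlap. The genes were named for their small adjusted p, which favours such a gap, so nothing is drawn from it.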

How the results depend on the processing

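The 5 calls among the gastric mucus and trefoil genes were made under every alternative run except the filter of 1 CPM in 4 libraries, which left 3, since Tff3, Muc5ac and Tff2 were then not tested. Tff3 and Muc5ac entered the main fit through the knockdown libraries alone, so their repeated calls on the same counts are not read as support. The count of genes called lower was 0 under all alternatives. Tested against a fold of 1.2, 1107 genes passed in place of 5645, and in the 7 related lists 16 in place of 51 (11 higher in place of 29, 5 lower in place of 22). Leaving out each library gave 5116 to 6004 genes, 5 to 5 of the set higher and 0 to 0 lower, and 49 to 57 list genes (27 to 29 higher, 22 to 28 lower). Over those fits log2 fold changes ran from 1.11 to 1.199 for Tff1, 1.70 to 1.85 for Tff3, 3.25 to 3.62 for Muc5ac, 0.40 to 0.43 for Muc1, 0.58 to 0.61 for Ctse and −0.57 to −0.23 for Tff2, whose smallest adjusted p was 0.121. Libraries with the same replicate number showed almost no shared deviation (correlations of deviations −0.035 to 0.0201), which does not settle whether they were handled in pairs. With a replicate block the counts in the set were again 5 and 0. Depth limits Muc4, Muc6, Agr2 and Gkn1, for which only large differences would be detectable.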
